A study of Homo sapiens with 16 samples.

Results

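The genes described here encode nuclear-encoded subunits of the mitochondrial respiratory chain and ATP synthase, together with 8 complex I assembly factors that share the NDUFA name prefix. They were chosen by symbol: names in the array annotation starting with NDUFA, NDUFB, NDUFC, NDUFS, NDUFV, UQCR, COX4, COX5, COX6, COX7, COX8, ATP5F1, ATP5M or ATP5P, or the name of a succinate dehydrogenase subunit or of CYC1, without pseudogenes or antisense RNAs. This gave 85 of the 19738 genes measured, and no expression value entered the choice. By complex they were 33 subunits of complex I, 3 of complex II, 7 of complex III, 17 of complex IV, 17 of ATP synthase and the 8 assembly factors NDUFAF1 to NDUFAF8. NDUFS5, NDUFS8, NDUFC2 and UQCRH were measured only by probe sets shared with another gene and are not counted. The complexes, complex II among them, are not covered in full, and further subunits were not analysed here.

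The study profiled 16 human leukemia lines of the T-ALL type, which arises from T-cell precursors, with 1 Affymetrix array per line. All lines form 1 untreated group, grown in 10 ml of RPMI-1640 medium for 24 hours before total RNA was taken. The lines are SUP-T11, MOLT-16, HSB-2, SKW-3, PEER, DU528, MOLT-4, KOPT-K1, PF-382, CCRF-CEM, P12-ICHIKAWA, SUP-T13, ALL-SIL, LOUCY, JURKAT and TALL-1. Each line is an established leukemia cell line, measured once, so every SD below is the spread between lines and not a replicate error. Differences between lines therefore mix biology with the handling of a single culture and array, which cannot be told apart.

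The respiratory chain moves electrons from NADH and succinate through complexes I and II, coenzyme Q, complex III and cytochrome c to oxygen at complex IV. Complexes I, III and IV pump protons as they do so, and ATP synthase uses the gradient to make ATP. Most subunits are encoded in the nucleus and imported, while a small core is encoded in mitochondrial DNA, and proliferating leukemia cells run this pathway beside a high rate of glycolysis. In many nuclear genes of the pathway, promoters carry sites for the transcription factors NRF1 and GABP (an ETS factor), which PPRC1, a coactivator of growing cells, and related coactivators bind.

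Levels are given as deposited, as linear intensities of probe sets, with a median of 42.4 over the whole table. A gene was called detected in a line where its intensity was above 169.5, which is 4 times that median. The T-cell label was checked with marker genes: CD3D, a chain of the T-cell receptor complex, lay between 7095 in MOLT-16 and 14179 in CCRF-CEM, and 5 of 7 T-lineage markers were detected in all 16 lines. The exceptions were CD2, detected in 9 lines, and CD3E, detected in 15. The mean of the 7 markers, each centred on its own log2 mean, was lowest in MOLT-16 at -1.95. Of the markers of other cell types, 1 of 4 B-cell, 0 of 5 myeloid, 0 of 5 stromal and 0 of 4 striated muscle markers were detected in every line. Detected in no line were 2 of 4 B-cell, 4 of 5 myeloid, 4 of 5 stromal and 3 of 4 striated muscle markers. The remaining ones were detected in some lines. RNA integrity was read from ACTB, whose 3' control probe set divided by its 5' one ran from 1.44 in DU528 to 2.03 in MOLT-4.

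The promoters shown here belong to COX5B, SDHD and COX6A1, which are 3 of the 4 genes with the highest mean correlation to the other respiratory chain genes, and to COX6A2, the muscle counterpart of COX6A1, whose intensity stayed near background. Sequences are RefSeq's, build GRCh38.p14, from 250 bases before to 50 bases after the annotated start, 5′ to 3′ on the gene's strand. Capitals mark the NRF1 core GCGCATGC and the ETS motif CCGGAAGT, each searched on both strands together with the YY1 motif AAGATGGCG and the E-box CACGTG. The 4 promoters lie at chr2:97645812-97646111 (COX5B, plus strand), chr11:112086623-112086922 (SDHD, plus strand), chr12:120437863-120438162 (COX6A1, plus strand) and chr16:31428311-31428610 (COX6A2, minus strand).
COX5B: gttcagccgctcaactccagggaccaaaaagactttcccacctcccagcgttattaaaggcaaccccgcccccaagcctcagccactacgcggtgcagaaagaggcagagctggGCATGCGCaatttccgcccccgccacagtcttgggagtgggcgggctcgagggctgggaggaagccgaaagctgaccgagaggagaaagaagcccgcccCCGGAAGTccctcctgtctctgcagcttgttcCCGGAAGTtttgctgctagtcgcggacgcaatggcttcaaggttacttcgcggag
SDHD: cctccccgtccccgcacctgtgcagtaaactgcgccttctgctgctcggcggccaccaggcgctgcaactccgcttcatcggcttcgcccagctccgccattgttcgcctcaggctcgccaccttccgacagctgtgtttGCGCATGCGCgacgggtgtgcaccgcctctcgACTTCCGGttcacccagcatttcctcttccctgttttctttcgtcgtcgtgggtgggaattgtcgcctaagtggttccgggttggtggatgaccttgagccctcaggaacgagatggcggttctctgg
COX6A1: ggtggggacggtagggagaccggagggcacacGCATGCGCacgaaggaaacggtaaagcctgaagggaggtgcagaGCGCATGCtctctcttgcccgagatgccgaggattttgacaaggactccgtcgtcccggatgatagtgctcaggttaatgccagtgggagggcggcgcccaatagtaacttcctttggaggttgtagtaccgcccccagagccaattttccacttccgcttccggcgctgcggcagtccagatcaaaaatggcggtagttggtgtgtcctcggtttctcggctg
COX6A2: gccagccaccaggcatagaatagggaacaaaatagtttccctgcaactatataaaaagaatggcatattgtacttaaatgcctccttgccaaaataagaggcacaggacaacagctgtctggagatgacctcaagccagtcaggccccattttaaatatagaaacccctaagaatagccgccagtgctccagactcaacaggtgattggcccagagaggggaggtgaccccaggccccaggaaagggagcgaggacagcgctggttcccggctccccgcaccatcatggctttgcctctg

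COX5B held an NRF1 core starting 136 bases upstream of the start and 2 ETS motifs 37 and 5 bases upstream. SDHD held an NRF1 core, read on both strands in 1 overlapping run, 110 bases upstream, and an ETS motif 78 bases upstream. COX6A1 held 2 NRF1 cores, 218 and 174 bases upstream, and COX6A2 held none of the 4 motifs in this window. ATP5F1B, the other of the 4 genes with the highest mean correlation, is not shown and had no recorded motif. Either its window held none or it had no promoter entry.

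Among the 85 genes, 72 had a promoter entry. The NRF1 core was in 14 of them (19.4%), against 3.27% of all 27305 promoters of the table and 5.34% of the 10710 promoters of genes expressed well enough to be tested. The ETS motif was in 9 (12.5%, against 4.44% and 8.35%), the YY1 motif in 7 (9.72%, against 1.85% and 3.74%) and the E-box, the site that MYC binds, in 8 (11.1%, against 7.43% and 10.1%). At least 1 of the NRF1, ETS and YY1 motifs was in 25 promoters (34.7%, against 8.90% and 16.1%). All 25 belonged to genes detected in every line, of which 68 had a promoter entry, and 0 to the 4 undetected genes with an entry, COX6A2, COX6B2, COX7B2 and COX8C. A match describes the letters of a window and not binding, and the exact motifs used here miss sites that differ by a base.

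Of the 85 genes, 78 were detected in all 16 lines and 7 in none, so no gene was detected in some lines and not in others. The 7 were COX4I2, COX6A2, COX6B2, COX7A1, COX7B2, COX8C and ATP5MF. Genes were tested further if their 3rd highest value was above the table median, which 80 of the 85 genes and 13295 of all 19738 genes passed. COX4I2 and COX6B2 passed this filter without being detected, while COX6A2, COX7A1, COX7B2, COX8C and ATP5MF did not pass it.

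Complex IV, cytochrome c oxidase, has subunits with paired isoforms, and the restricted member of every measured pair was near background. COX4I2, the isoform known from lung, lay between 38.9 and 95.9, against 8394 to 11885 for COX4I1. COX6A2, known from heart and skeletal muscle, lay between 9.22 and 32.4, against 6703 to 12871 for COX6A1. COX7A1, also a muscle isoform, lay between 2.88 and 26.4, against 4409 to 10017 for COX7A2. Probe sets differ in how strongly they hybridise, so these levels place each gene above or below detection and do not give a ratio between isoforms.

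The isoforms known from testis gave the same picture. COX6B2 lay between 21.5 and 52.5 (COX6B1 6181 to 9534), COX7B2 between 1.95 and 20.9 (COX7B 7187 to 11996) and COX8C between 1.45 and 26.0 (COX8A 6145 to 8902). In COX8C the value of 26.0 was that of LOUCY and the next was 8.59 in PF-382, both far below detection. The striated muscle markers ACTA1, MYH7 and DES were detected in 0 lines and CKM in 1, DU528, where it read 294.9.

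**Figure D1:**
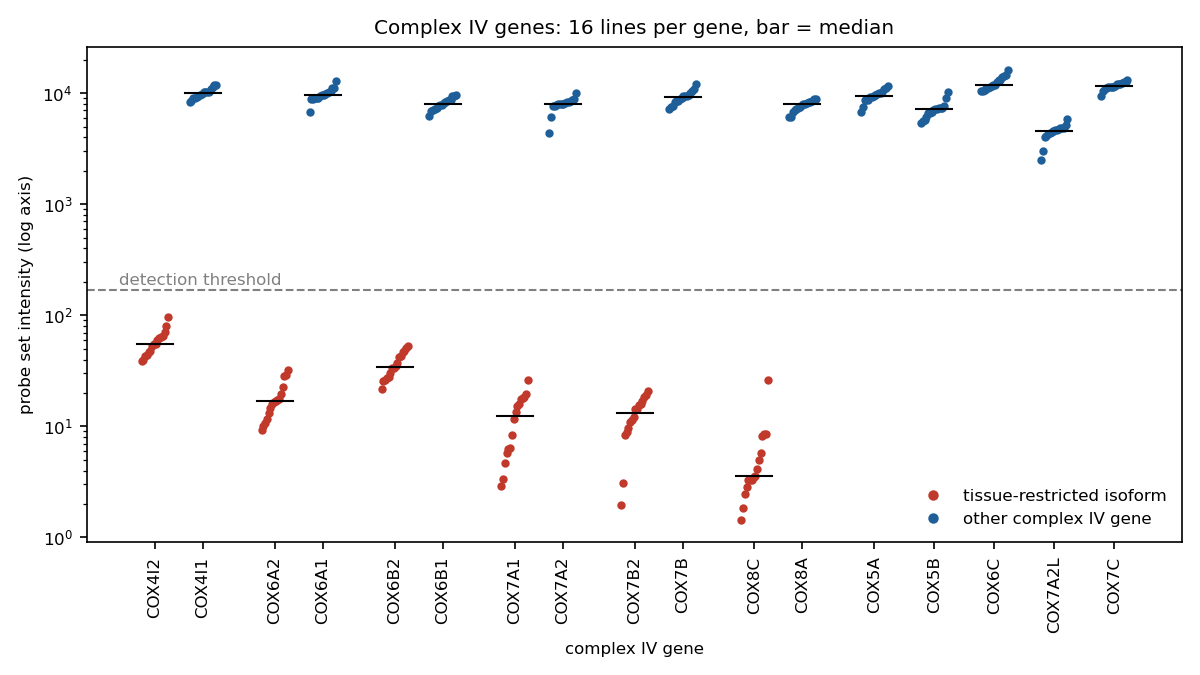
Intensity (log axis) of the 17 complex IV genes, with 1 point for each of the 16 lines and a bar at the median; restricted isoforms are red and stand left of their common partner. All points of the 6 restricted isoforms lie below the dashed detection threshold of 169.5, and all points of the other 11 genes lie above it.

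ATP5MF, a small membrane subunit of ATP synthase, gave different readings by probe set. Its only probe set that names no other gene read 13.3 to 50.8, whereas the probe set it shares with ARMC2-AS1 read 6944 in TALL-1 to 10245 in SUP-T11. Shared probe sets of uncounted subunits were detected in all lines: the one for NDUFS5 and RPL10 read 6537 to 12782, and the one for UQCRH and UQCRHL read 6762 to 10434.

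Most of the 78 detected genes were highly expressed. The tested respiratory chain genes had a smaller median SD than all tested genes. At equal level, compared further below, this did not hold throughout. Of the 80 genes tested, 75 had a mean above 1000, a level that 3902 of the 13295 tested genes reached. Their median SD over the lines was 0.22 on the log2(intensity + 16) scale, against 0.41 for all tested genes. Restricting both to genes with a mean above 1000 gave 0.22 for the respiratory chain genes and 0.32 for all genes. The highest and lowest line differed by less than 2-fold for 45 of the 80 genes (56.3%), against 15.7% of all tested genes.

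The arrays' own controls set a scale for these spreads. The 12 poly-A spike probe sets, added RNAs that pass through labelling, had a median SD of 0.23 and a largest of 0.28, and the 9 hybridisation spikes a median of 0.17. The SD of 56 of the 80 genes was at or below that largest poly-A spike value, and that of 24 was above it. The share of all tested genes at or below it was not counted. At similar levels most genes of any kind were below it: their median SD was 0.25 between 12 and 13 on the log2 scale and 0.14 between 13 and 14. An SD above 0.5 was seen in 3 genes (3.75%), NDUFV3, NDUFAF3 and NDUFAF2, against 38.4% of all tested genes, and an SD above 1 in 0 genes, against 17.8%.

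**Figure D2:**
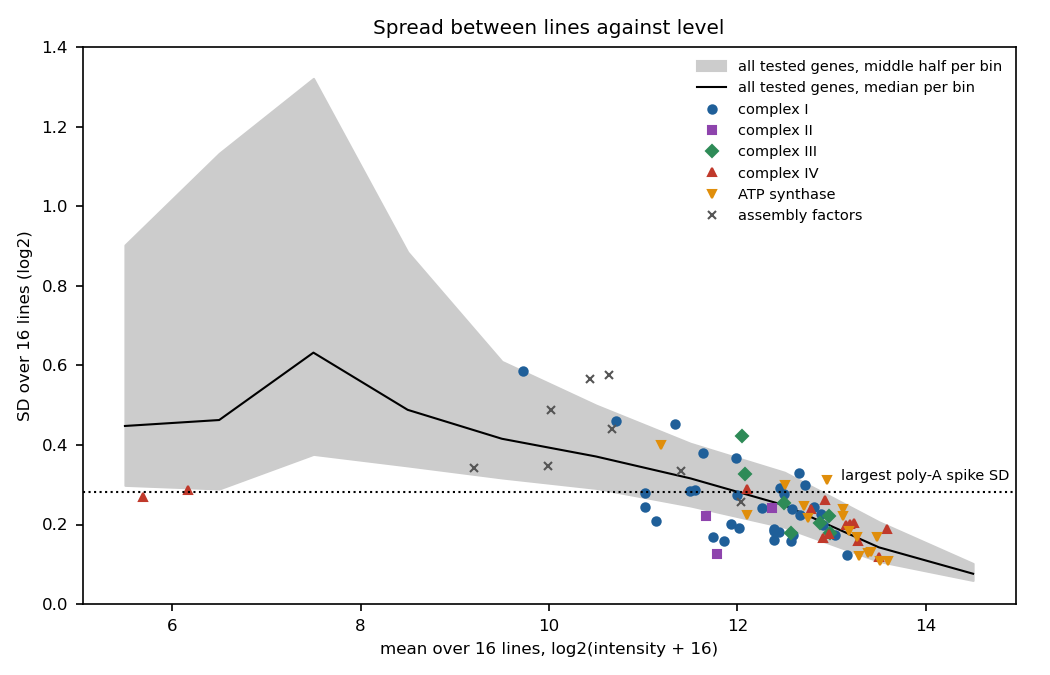
SD over the 16 lines (log2) against mean level for the 80 tested respiratory chain genes, with the interquartile range and the median of all tested genes in bins 1 log2 unit wide, and a dotted line at the largest poly-A spike SD of 0.28. Most subunits lie at high level and low SD; NDUFV3 at 0.59 and the assembly factors NDUFAF3 and NDUFAF2 at 0.58 and 0.56 lie highest.

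Above 9 on the log2 scale, the spread of all genes fell with level. Between 9 and 10, the 3 respiratory chain genes had a median SD of 0.35, against 0.42 for 2060 genes. Between 10 and 11, the 5 respiratory chain genes had a median SD of 0.49, against 0.37 for 1929 genes. Between 11 and 12 on the log2 scale, the 16 respiratory chain genes had a median SD of 0.28, against 0.32 for 1193 genes. Between 12 and 13, it was 0.23 for 36 respiratory chain genes and 0.25 for 538 genes. Between 13 and 14 it was 0.17 for 18 respiratory chain genes and 0.14 for 178 genes. By complex the median SD was 0.24 in complex I, 0.22 in complex II, 0.22 in complex III, 0.20 in complex IV, 0.20 in ATP synthase and 0.39 in the assembly factors.

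Complex I, the entry point for electrons from NADH, had 33 subunits detected in every line. The brightest were NDUFB4, an accessory subunit of the membrane arm, at 7578 to 10114 with a median of 9220, and NDUFAB1, the mitochondrial acyl carrier protein, at 6909 to 10588 with a median of 8125. The widest was NDUFV3, an accessory subunit of the NADH-binding module, which read 332 in TALL-1 and 388 in KOPT-K1, had a median of 827 and reached 1761 in MOLT-16. TALL-1 and KOPT-K1 stood below the other 14 lines, which began at 680 in DU528. The other subunits of that module were much steadier, with 2928 to 4985 for NDUFV1, which binds NADH, and 4216 to 6560 for NDUFV2, an iron-sulfur subunit.

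NDUFA10, an accessory subunit of the membrane arm, was next in range, with 802 in LOUCY, a median of 1811 and 2400 in DU528. It was low in LOUCY, ALL-SIL (1013) and TALL-1 (1049), and 1429 or more in the others. NDUFA8, an accessory subunit of the same arm, ran from 1985 in PEER over a median of 3223 to 5218 in MOLT-16, with the lines spread between. NDUFA9, an accessory subunit beside the coenzyme Q site, fell into separate levels: it read 1513 in SUP-T11, 1572 in ALL-SIL, 1585 in P12-ICHIKAWA and 1614 in TALL-1, and 2223 to 3527 in the other 12 lines. NDUFB8 and NDUFB10, both membrane-arm subunits, each had 1 low line: NDUFB8 was 3491 in DU528 and 5014 to 8238 elsewhere, and NDUFB10 was 2068 in LOUCY and 2730 to 5189 elsewhere.

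Complex II, succinate dehydrogenase, also serves in the tricarboxylic acid cycle. SDHD, 1 of the membrane anchors, ran from 3819 in TALL-1 over a median of 5331 to 7671 in SUP-T11, with the next value, 6130, in P12-ICHIKAWA. SDHA, the flavoprotein that oxidises succinate, ran from 2539 in CCRF-CEM over a median of 3192 to 4227 in SUP-T11. SDHC, the other anchor, was steady, with 2785 in MOLT-16, a median of 3597 and 4092 in SUP-T11. SUP-T11 was highest for all 3.

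Complex III passes electrons from coenzyme Q to cytochrome c. CYC1, cytochrome c1, was its widest gene, with 2442 in TALL-1, a median of 4116 and 7966 in SUP-T11, where the next line, MOLT-16, read 5956. UQCRC1 and UQCRC2, the core proteins, were widest next: UQCRC1 ran from 3070 in TALL-1 over 4113 to 6575 in MOLT-16, and UQCRC2 from 3930 in ALL-SIL over 5732 to 8450 in SKW-3. The brightest small subunits were UQCR10, at 6094 in SUP-T11 to 9984 in MOLT-16, and UQCRB, at 5872 in LOUCY to 10804 in SUP-T11. SUP-T11 was thus highest for one small subunit and lowest for another.

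In complex IV the brightest genes were COX6C, at 10435 in JURKAT to 16331 in SUP-T11 with a median of 11904, and COX7C, at 9351 in ALL-SIL to 13074 in SUP-T11 with a median of 11547. COX7A2L, which joins complexes III and IV into supercomplexes, had the widest range of the detected genes, with 2516 in JURKAT, 3029 in LOUCY, a median of 4594 and 5848 in KOPT-K1. JURKAT and LOUCY stood below the other 14 lines, which began at 4023 in SUP-T11. COX7A2, an ordinary subunit of complex IV, was low in PEER at 4409, against 6074 in MOLT-4 and up to 10017 in SUP-T11.

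ATP synthase held the most even genes of all. ATP5F1A, the alpha subunit of its catalytic head, read 10650 in TALL-1 to 14291 in MOLT-16 (SD 0.11), and ATP5MC3, 1 of 3 genes for the membrane c-ring, 10386 in TALL-1 to 13657 in SUP-T11 (SD 0.11). ATP5F1D, the delta subunit of the catalytic head, was the widest, with 1635 in PF-382, a median of 2103 and 4712 in MOLT-16, where the next line, HSB-2, read 3296. ATP5PD, a peripheral stalk subunit, read 4852 in JURKAT, a median of 7759 and 13421 in SUP-T11. MOLT-16 for ATP5F1D and SUP-T11 for ATP5PD stood above all other lines.

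The assembly factors are not part of the finished complex I, and their median SD of 0.39 was above that of each complex. Most of them lay at lower levels, where genes of all kinds varied more. The median SD of all genes was 0.42 between 9 and 10 on the log2 scale and 0.37 between 10 and 11. NDUFAF2, which acts late in assembly, read 642 in TALL-1, a median of 1522 and 3266 in MOLT-16. NDUFAF1, which acts early on the membrane arm, read 408 in TALL-1, against 778 to 1601 in the other 15 lines. NDUFAF6 ran from 972 in SUP-T13 over 1619 to 3126 in SKW-3. NDUFAF3 and NDUFAF4 work together, yet NDUFAF3 ran from 879 in DU528 to 2821 in JURKAT and NDUFAF4 from 1522 in PEER to 4007 in MOLT-16. NDUFAF7, a methyltransferase, read 273 in JURKAT, against 499 to 868 in the others, and NDUFAF8, a partner of NDUFAF5, was the brightest and most even, at 2958 in LOUCY to 5716 in KOPT-K1.

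No tested gene had a line 1 log2 unit or more from the next. The largest steps were the low values of NDUFAF1 in TALL-1 (0.90) and NDUFAF7 in JURKAT (0.83). A value at least 1 log2 unit below the gene's own median occurred 8 times in 7 genes. In each case the 20 measured genes flanking the gene on its chromosome (GRCh38.p14) were read in the same line.

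In LOUCY, NDUFA10 (chr2:239892442-240025342) lay 1.16 below its median, and its 20 neighbours had a median of -0.61, with 15 below their own medians, and the tested genes of the chromosome a median of 0.05. NDUFB10 (chr16:1959538-1961975) lay 1.05 below its median in LOUCY, with a neighbour median of -0.58, 18 of 20 below and a chromosome median of -0.25. In JURKAT, NDUFAF7 (chr2:37231658-37271365) lay 1.02 below its median, with a neighbour median of -0.56 and 18 of 20 below, while the tested genes of the whole chromosome had a median of 0.03.

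NDUFV3 (chr21:42893309-42913299) lay 1.28 below its median in TALL-1 and 1.06 below in KOPT-K1, with neighbour medians of -0.38 (13 of 20 below) and -0.45 (17 of 20 below) and chromosome medians of 0.29 and -0.18. For NDUFB8 in DU528 the neighbour median was -0.17, with 14 of 20 below and a chromosome median of 0.04. In TALL-1 it was -0.21 for NDUFAF1, with 16 of 20 below and a chromosome median of -0.22. For NDUFAF2 in TALL-1 it was -0.17, with 13 of 20 below, 7 of them by at least 1 log2 unit, and a chromosome median of -0.01. In all 8 cases most of the neighbours were below their own medians, but the share of all genes below theirs in that line is not given here. For NDUFAF1 in TALL-1 the neighbour median was no lower than that of the chromosome. Copy number was not measured here, and the part of position in these low values was not tested.

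The lines differed in the mean over the 80 genes, taken after centring each gene on its own mean. It was highest in SUP-T11 at 0.20, followed by MOLT-16 at 0.12, HSB-2 at 0.11 and SKW-3 at 0.10. It was lowest in TALL-1 at -0.23, with JURKAT at -0.12 and LOUCY at -0.07 above it. The range of 0.43 log2 units is a difference between single arrays. The median of all tested genes, centred alike, was -0.02 in SUP-T11 and -0.01 in TALL-1.

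**Figure D3:**
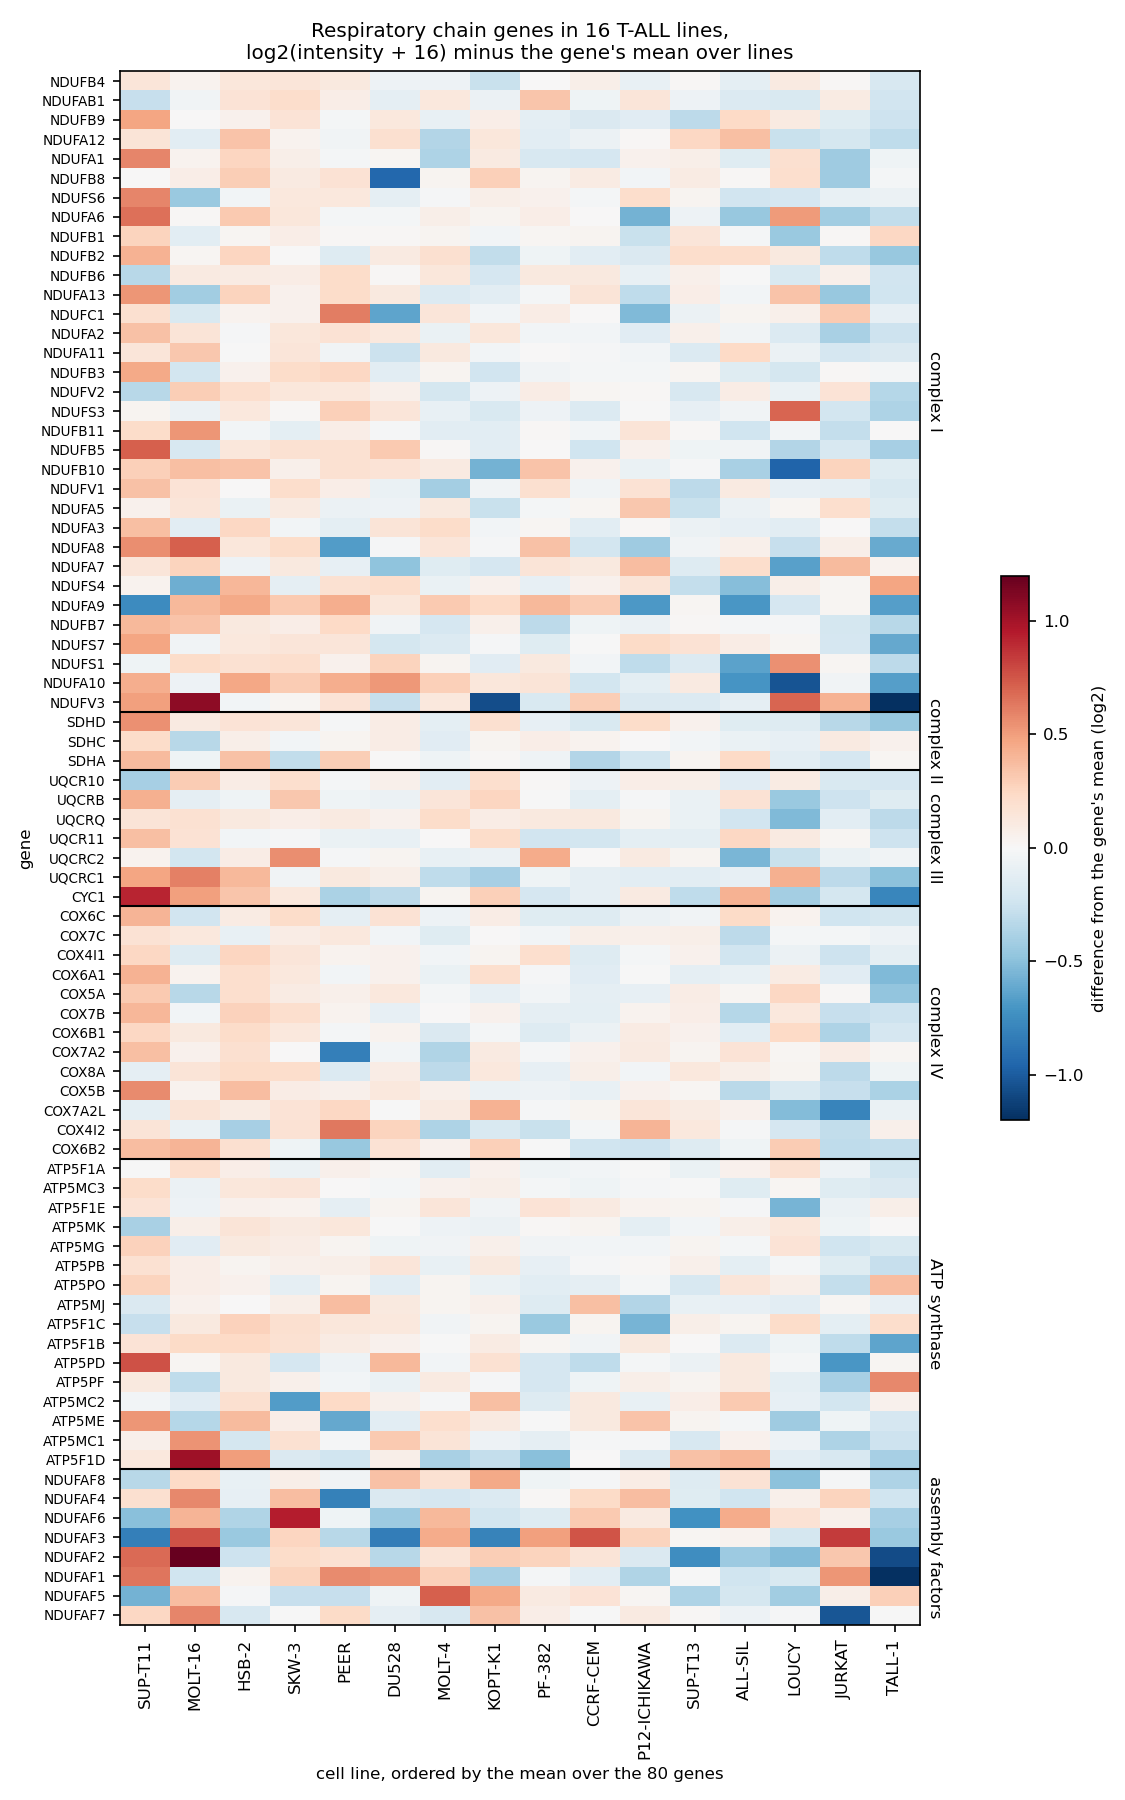
Each of the 80 tested genes (rows, by complex and then by mean intensity) in each of the 16 lines (columns, by the mean over the 80 genes), coloured by its log2(intensity + 16) value minus the gene's mean over lines. The SUP-T11 column at the left is mostly red in complexes I to IV, the TALL-1 column at the right mostly blue, and the strongest colours are in NDUFV3 and the assembly factors.

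SUP-T11 had the highest value of all 16 lines for 36 of the 80 genes (45.0%), against 9.83% of all tested genes. Among all genes with a mean above 1000 it was highest for 8.33% and lowest for 18.7%. The 36 genes were 15 of 33 in complex I, 3 of 3 in complex II, 3 of 7 in complex III, 8 of 13 in complex IV, 6 of 16 in ATP synthase and 1 of 8 assembly factors. Its means were 0.24 in complex I, 0.38 in complex II, 0.28 in complex III, 0.26 in complex IV, 0.13 in ATP synthase and -0.06 in the assembly factors. The cytosolic ribosomal protein genes (60 genes, mean -0.05) and proteasome subunit genes (34 genes, mean -0.24) were not high in this line. GAPDH had its highest 3' to 5' ratio in SUP-T11, at 1.05, and the part of RNA integrity in the shift was not tested.

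At least 0.5 log2 units above the median of the other 15 lines were 15 of the 80 genes (18.8%), near the 18.0% of all tested genes. At least 0.5 below were 4 (5%), NDUFA9, NDUFAF3, NDUFAF5 and NDUFAF6, against 22.4% of all tested genes. CYC1 was 1.02 above the median of the other lines (7966 in SUP-T11, against 2442 to 5956 in the others), ATP5PD 0.79 (13421, against 4852 to 10320) and NDUFB5, a membrane-arm subunit of complex I, 0.75 (6689, against 3085 to 5061). NDUFA9 lay furthest below (1513, against 1572 to 3527).

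Genes on several chromosomes were high in SUP-T11. On chromosome 19, which holds 10 of the genes, all 10 were above their means in SUP-T11 with a mean of 0.32, while the other 950 tested genes there averaged 0.14. On chromosome 5, all 7 genes were above their means with an average of 0.34, against 0.05 for 590 others, and on chromosome 11, 4 of 5 with an average of 0.22, against -0.12 for 753 others. The respiratory chain genes averaged below 0 in SUP-T11 on chromosomes 10 (3 genes), 12 (5), 18 (2) and 20 (3). On chromosome 10 their average was -0.22, and that of the other 510 tested genes -0.57.

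TALL-1 had the lowest value for 21 of the 80 genes (26.3%), against 8.63% of all tested genes, and 64 of the 80 genes were below their own means in it. The 21 were 8 in complex I, 1 in complex II, 3 in complex III, 3 in complex IV, 4 in ATP synthase and 2 assembly factors, and all 7 complex III genes were below their means. Its means were -0.26 in complex I, -0.13 in complex II, -0.32 in complex III, -0.20 in complex IV, -0.07 in ATP synthase and -0.44 in the assembly factors. At least 0.5 below the median of the other lines were 12 genes (15%), against 18.0% of all tested genes, and at least 0.5 above it was 1 gene (1.25%), ATP5PF, against 15.8%.

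The 12 low genes of TALL-1 included ATP5F1B, the catalytic beta subunit of ATP synthase, with 5707 in TALL-1, against 7165 to 10489 in the other lines. COX6A1 read 6703 in TALL-1, against 8818 to 12871. ATP5PF and ATP5PO, both of the peripheral stalk, went the other way, with 10261 in TALL-1, against 5227 to 7484 for ATP5PF, and 12683, against 8077 to 11803, for ATP5PO. Both lie on chromosome 21, where the other 154 tested genes averaged 0.21 in TALL-1, whereas NDUFV3 of the same chromosome was lowest in that line.

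JURKAT had the lowest value for 15 of the 80 genes (18.8%), against 4.95% of all tested genes. In JURKAT 15 of 16 ATP synthase genes and 11 of 13 complex IV genes were below their means, with averages of -0.21 and -0.24. The assembly factors averaged 0.13 there, and the median of all tested genes, centred alike, was 0.02. MOLT-16 had the highest value for 15 genes (18.8%), against 11.5% of all tested genes. Its 8 assembly factors averaged 0.49 and 7 of them were above their means, while its ATP synthase genes averaged 0.08 and its complex II genes -0.09.

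In MOLT-16, 11 of the 80 genes (13.8%) were at least 0.5 above the median of the other lines, against 17.8% of all tested genes, and 1 (1.25%), NDUFS4, was at least 0.5 below it, against 20.7%. The largest differences there were ATP5F1D at 1.17, NDUFV3 at 1.11 and NDUFAF2 at 1.09.

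**Figure D4:**
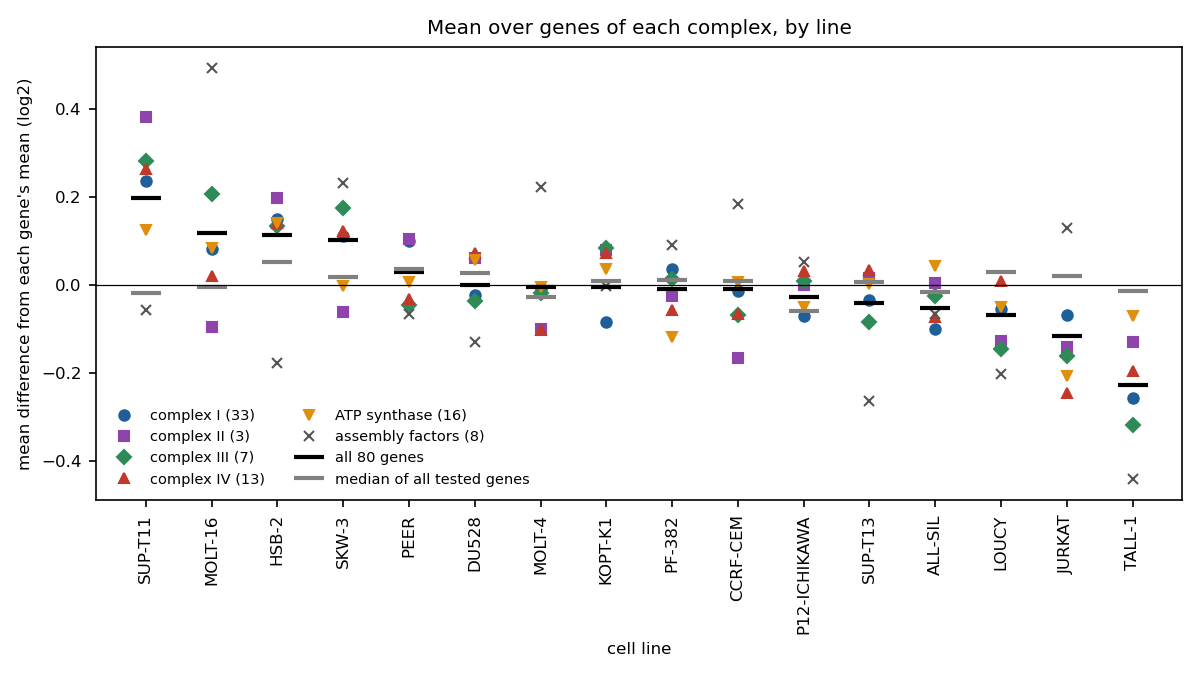
Mean over the genes of each complex of the log2 value minus the gene's mean, for each line, with the number of genes in the legend; black bars are the mean over all 80 genes and grey bars the median of all tested genes. Black bars run from 0.20 in SUP-T11 to -0.23 in TALL-1, while grey bars stay near 0. The assembly factors (crosses) lie furthest from the subunits in HSB-2 and MOLT-16. They also lie apart in other lines, among them MOLT-4, JURKAT, SUP-T11 and SUP-T13.

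Correlation between genes across the 16 lines was weak for most pairs and strong for a few. The median Pearson r over the 3160 pairs of the 80 genes was 0.16, against 0.005 for all pairs of tested genes, and it was 0.26 with each array centred on its median. Of the pairs, 14.7% had an r above 0.5 and 1.68% below -0.5. The points share arrays, and scaling differences between arrays enter every r. Within complexes the median r was 0.18 in complex I, 0.26 in complex II, 0.17 in complex III, 0.33 in complex IV, 0.11 in ATP synthase and 0.17 in the assembly factors.

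Each of the 5 pairs with the highest r, named next, joined genes of different complexes, as most of the 3160 pairs do. COX7B and ATP5MC3 had an r of 0.94 (0.92 without SUP-T11), NDUFA1 and COX6B1 0.88 (0.89), SDHD and ATP5PB 0.87 (0.86), and SDHD and COX5B 0.87 (0.78). SDHD and COX6A1, whose promoters are printed above, had an r of 0.86 (0.80). Pairs within a complex followed, such as ATP5MC3 and ATP5MG at 0.86 (0.79) and COX5B and COX7B at 0.84 (0.77). The genes with the highest mean r to all others were COX5B at 0.36 and SDHD, ATP5F1B and COX6A1 at 0.35 each. The most opposed pair was ATP5PD and NDUFAF3, with an r of -0.78 (-0.75 without SUP-T11).

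Genes linked to the pathway were read from lists. Cytochrome c and the coenzyme Q synthesis genes, the chain's mobile carriers, had a mean over 14 genes that correlated with the mean of the 80 genes at an r of 0.67 over 16 lines (0.56 without SUP-T11). CYCS, cytochrome c itself, ran from 8207 in TALL-1 to 12921 in MOLT-16. The 75 mitochondrial ribosomal protein genes gave an r of 0.37 (0.66 without SUP-T11, where their mean was -0.16), the 16 tricarboxylic acid cycle genes 0.31 (0.55), the 20 glycolysis genes 0.32 (0.42) and the 43 assembly factors outside the name rule 0.32 (0.37). TALL-1, where the mitochondrial ribosomal genes had their lowest mean (-0.27), weighs on these r. Without SUP-T11 and TALL-1 the r was 0.47 for the mobile carriers and 0.45 for the mitochondrial ribosomal genes. It was 0.44 for the tricarboxylic acid cycle genes, 0.32 for glycolysis and 0.30 for the other assembly factors. In the fits described below, 0 genes of these lists were called with MYC or the ACTB ratio, and with PPRC1 3 of 75 mitochondrial ribosomal and 3 of 16 regulator genes were called higher, against 1.04% of all genes. Without SUP-T11, 0 genes of any kind were called with PPRC1.

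Subunits encoded in mitochondrial DNA were read where possible. Of 13, 7 had a probe set of their own, and the r of their mean with that of the 80 nuclear genes was -0.35 (-0.25 without SUP-T11, and -0.56 without SUP-T11 and TALL-1). COX1, the catalytic subunit of complex IV, read 20377 in JURKAT to 24026 in PF-382, and COX2 21518 to 24468, next to the table's highest value of 24485, and both enter that mean. ND6, encoded on the other strand of mitochondrial DNA, was the widest, from 199 in MOLT-16 to 1108 in P12-ICHIKAWA, and COX3 ran from 173 in ALL-SIL to 585 in JURKAT.

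Regulators of the pathway had a median SD of 0.35, above the 0.22 of the tested respiratory chain genes but below the 0.41 of all tested genes. These medians were not matched for level, with which SD changes, so they do not show regulators to be unusually variable. The regulators named here were picked mainly for a wide range. MYC, a growth regulator known to act on mitochondrial genes, read 23.6 in LOUCY and 3638 in TALL-1 to 9553 in MOLT-16 elsewhere. MTERF1, a termination factor of mitochondrial transcription, was near background in PEER at 15.8 and 307 to 749 in the others. PPARGC1B, a coactivator of the pathway, was 11.2 in TALL-1 and detected in 13 lines. TWNK, the mitochondrial DNA helicase, was 244 in SUP-T11, against 483 to 1124 in the others. PPARGC1A, the best known coactivator of the family in muscle and brown fat, was detected in 0 lines.

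Whether the genes followed MYC was tested with limma across 13294 genes in the 15 lines other than LOUCY, with Benjamini-Hochberg adjustment over all of them. At an adjusted p below 0.05 this called 0 of the 80 genes (all tested genes: 0.0% higher and 0.0% lower). At an unadjusted p below 0.05, 10 of the 80 genes (12.5%) and 8.18% of all genes passed. The smallest p among the 80 was that of NDUFS4, an accessory subunit of complex I, whose slope was -0.55 ± 0.13 (SE) log2 units per log2 unit of MYC with a limma adjusted p of 0.279. With LOUCY included, 1 gene was called, ATP5F1E (slope 0.08, limma adjusted p of 0.0152, background 0.308% higher and 0.459% lower), which read 7755 in LOUCY and 10581 to 12834 elsewhere.

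The same fit on PPRC1 over all 16 lines called 4 of the 80 genes, all lower where PPRC1 was higher (background 0.496% lower), and 0 higher (background 1.04%). They were COX5B with a slope of -0.64 ± 0.13 (SE, limma adjusted p of 0.0212), ATP5PD with -0.81 ± 0.17 (0.0272), NDUFA1, a small subunit of complex I, with -0.62 ± 0.14 (0.0393), and NDUFB5 with -0.70 ± 0.16 (0.0436). At an unadjusted p below 0.05, 23 of the 80 genes (28.75%) and 13.3% of all genes passed. All 4 calls were lost without SUP-T11, while the slopes were -0.91 for COX5B, -0.96 for ATP5PD, -0.73 for NDUFA1 and -0.62 for NDUFB5 in that fit. PPRC1 read 511 in SUP-T11 and 925 to 1373 in the other 15 lines, and without SUP-T11 the fit called 0 of the 80 genes and 0 of all genes (background 0.0%), with 7 of the 80 and 960 of all genes at an unadjusted p below 0.05. Over all 16 lines but with neither trend nor robust estimation, the slopes were the same and 0 of the 80 genes were called (limma adjusted p of 0.0539 to 0.0885), while 0.812% of all genes were called higher and 0.451% lower. With the ACTB 3'/5' ratio as a covariate, COX5B and ATP5PD were called lower (background 0.421%) and ATP5MK, a small membrane subunit of ATP synthase, higher (background 1.39%).

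Of the 138 genes called higher with PPRC1, all had their lowest value in SUP-T11, and of the 66 called lower, all had their highest value there. PPRC1 (chr10:102119889-102150333), TFAM and TWNK lie on chromosome 10, as did 21 of the 138 genes (15.2%, against 3.85% of all tested genes), and other genes of that chromosome were low in SUP-T11 as given above. TFAM, the packaging factor of mitochondrial DNA, read 812 in SUP-T11, against 1253 to 3153 in the others. PPRC1 cannot be told apart there from anything else in which SUP-T11 differs.

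**Figure D5:**
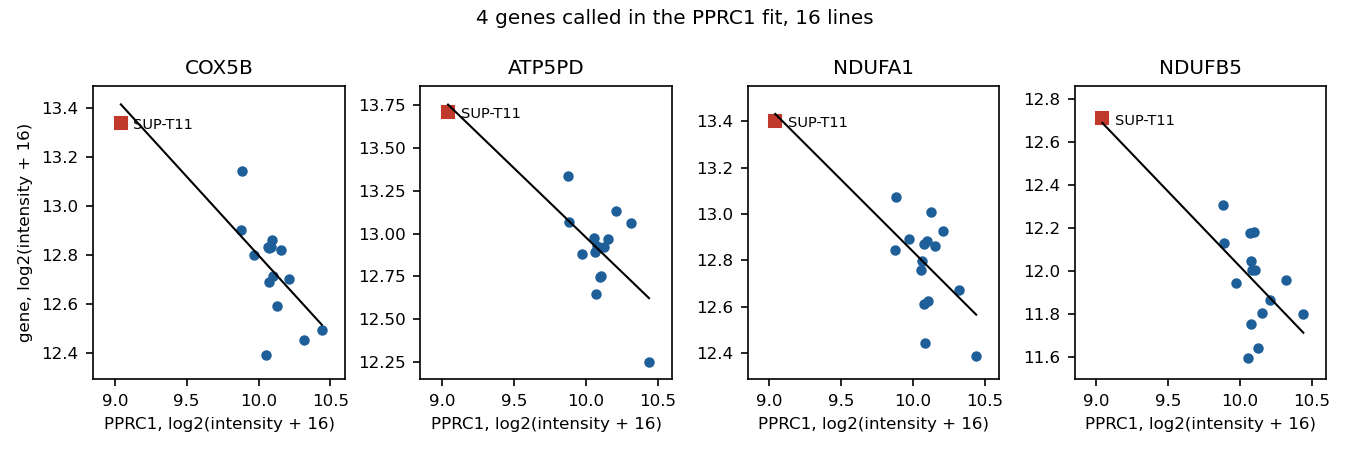
Log2(intensity + 16) of COX5B, ATP5PD, NDUFA1 and NDUFB5 against that of PPRC1 in the 16 lines, with the limma slope; the red square is SUP-T11. SUP-T11 lies at the far left and highest in all 4 panels.

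GABPA and NRF1, which bind the ETS and NRF1 motifs, were read in the same lines, as was ESRRA. GABPA was highest in TALL-1 at 3149, against 969 to 1638 in the other lines, and its r with the mean of the 80 genes was -0.61 over 16 lines. NRF1 was also highest in TALL-1 at 817, against 335 to 738, with an r of -0.37. ESRRA, a nuclear receptor that drives the pathway in muscle, had an r of 0.62 and was lowest in LOUCY at 721 and highest in SKW-3 at 1516. TALL-1 also had the lowest mean of the 80 genes, at -0.23, so it weighs on the r of GABPA and NRF1. No r of these factors without TALL-1 is given here. These are 3 of 18 regulators, and each r is a description over 16 arrays.

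RNA integrity was set against the same genes. The fit on the log2 of the ACTB 3'/5' ratio called 0 of the 80 genes (background 0.0903% higher and 0.406% lower). At an unadjusted p below 0.05, 11 of the 80 genes (13.8%) and 14.3% of all genes passed, and the smallest p were those of NDUFAF5 (limma adjusted p of 0.0744) and NDUFA13 (0.0768). In simulated data with the same lines, limma recovered 36.5% of genes given a slope of 1 on MYC, 13% on PPRC1 and 1% on the ACTB ratio, and at most 0.5% at a slope of 0.5. The changed genes were drawn from all tested genes with their own spreads, whose median SD was 0.41, against 0.22 for the 80 genes. The shares therefore do not give the recovery for the 80 genes.

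Further probe sets gave a check on the values. Of the 85 genes, 48 had 80 other probe sets of their own, of which 35 were detected in all lines and 24 in none. The r of those 35 with the probe set used had a median of 0.90, from 0.31 for NDUFAF4, whose other probe set was highest in HSB-2 and not in MOLT-16, up to 0.998. For COX5B, both other probe sets detected in all lines had an r of 0.99 with the one used and were lowest in TALL-1 and highest in SUP-T11.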

How the data were processed

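Total RNA of 16 T-ALL lines, 1 array each, was analysed from probe set intensities that the authors deposited on a linear scale. Software and scaling: not given in the sources used here. Values run from 0.6 to 24485 and array medians from 37.6 to 45.0, and values were used without normalization. For each gene, the brightest probe set on average was kept among those naming only that gene (41042 of 54675), named through the array platform's annotation and RefSeq GRCh38.p14, as log2(intensity + 16). Fits used limma 3.58.1 with trend and robust estimation (R 4.3.3) and Benjamini-Hochberg adjustment over all genes passing the filter, tested on simulated data with 200 changed genes. Other steps used Python 3.11.15, pandas 2.3.3 and numpy 2.4.6. The number of arrays limits the precision.

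The genes, lists and tests were chosen with earlier results of these data known. Named were, per complex, the 3 genes with the widest range and the 2 brightest, isoform pairs, undetected genes, genes called in a fit, genes at least 1 log2 unit below their median in a line, and at most 4 genes per list by range. Other names were chosen after their values were seen. Alternatives were 2 other pseudocounts, 2 normalizations, 3 probe set rules, no filter, limma without trend and robust, a covariate and leaving out each line.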

Additional observations from a re-analysis of the deposited data

How the results depend on the processing

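SUP-T11 had the highest mean over the respiratory chain genes under all 7 other settings of scale, normalization and probe set, and TALL-1 the lowest under 6 of them. With the probe set of highest SD the lowest was LOUCY. The next places depended on the setting. MOLT-16 gave way as second highest to P12-ICHIKAWA with quantile normalization, to HSB-2 with a pseudocount of 64 and to SKW-3 under the 3 probe set rules. LOUCY replaced JURKAT as second lowest with quantile normalization, with centred arrays and under 1 probe set rule. The range of that mean, 0.43, was 0.31 without TALL-1, 0.35 without SUP-T11 and 0.43 without any other line, and 0.41 without the genes of chromosome 8, an alternative added after seeing the data, as was leaving out lines for this range. The median SD of 0.22 was 0.34 with the probe set of highest SD and 0.21 to 0.23 when 1 line was left out. Against 4 genes in the main setting, the PPRC1 fit called 1 with each array centred on its median and 2 with the probe set of highest SD. It called 0 without trend and robust fitting. With centred arrays the gene called was NDUFA13 (limma adjusted p of 0.0165), and none of the 4 was called. With the probe set of highest SD the genes called were COX5B (limma adjusted p of 0.0428) and NDUFA6 (0.0476), and ATP5PD was far from a call (0.558). With the ACTB ratio as a covariate the fit called 3 genes, of which COX5B and ATP5PD were lower and ATP5MK higher (slope 0.36, limma adjusted p of 0.0465). NDUFA1 and NDUFB5 were not called in that fit (limma adjusted p of 0.075 and 0.0631), and COX5B and NDUFB5 not with quantile normalization (0.0692 and 0.109). Leaving out 1 line gave 0 to 5, namely 0 without SUP-T11, 2 without CCRF-CEM, HSB-2, JURKAT, PF-382 or SUP-T13, and 5 without LOUCY or TALL-1. The slopes of COX5B, ATP5PD, NDUFA1 and NDUFB5 were below 0 under all alternatives run, from -0.91 to -0.49, -0.96 to -0.48, -0.73 to -0.52 and -0.74 to -0.61. The median pairwise r of 0.16 was 0.13 to 0.26 over all alternatives, highest with centred arrays. The MYC fit called 1 gene with all 16 lines, and the ACTB fit 1 with quantile normalization and 1 with centred arrays, against 0 in each. The cause of these changes was not tested. No paired analysis was possible because all lines form 1 group. Unknown scaling, 1 array per line and bright probe sets near the top of the scale limit what these values can show.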
